A study of Rattus norvegicus with 8 samples.

Results

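Grin1, Grin2a, Grin2b, Dlg4 and Camk2a are 5 genes of the receiving side of the excitatory glutamate synapse, chosen by their Ensembl gene IDs (ENSRNOG00000011726, ENSRNOG00000033942, ENSRNOG00000008766, ENSRNOG00000018526 and ENSRNOG00000018712, in that order) from the 31185 genes of a rat brain RNA-seq table. The tissues were prefrontal cortex (PFC) and hippocampus from adult males of the outbred Sprague-Dawley strain, weighing 180 to 200 g. The control rat was not stressed and received saline. The other rats went through chronic stress, named CMS in the labels, and received saline, methylglyoxal (MGO) or luteolin by daily intraperitoneal injection in the last 3 weeks. MGO is a reactive by-product of glycolysis, and its dose is given as 5 mM/kg/day in the design text and as 100 mM/kg in the protocol. Luteolin, a plant flavonoid, was given at 10 mg/kg/day. Tissue was taken in week 7. Each of the 8 groups is 1 library, and the protocol names 1 unstressed rat and 2 stressed rats as the sources of both tissues, with no mention of a luteolin rat. A difference between treatments is therefore a difference between single libraries, without a test.

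The NMDA receptor is a glutamate-gated channel that lets calcium into the neuron when glutamate binds while the membrane is depolarised. Every NMDA receptor holds GluN1, the product of Grin1, together with GluN2 subunits such as GluN2A and GluN2B, the products of Grin2a and Grin2b, which set its kinetics and its partners. In forebrain neurons GluN2B is prominent early in life and GluN2A increases as synapses mature. Dlg4 encodes PSD-95, a scaffold protein that holds the receptors in the postsynaptic density, and Camk2a encodes the alpha subunit of CaMKII, the kinase that calcium entry through the receptor activates and that is needed for long-term potentiation in hippocampus.

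Promoter sequence was at hand in RefSeq for Grin1, Dlg4 and Camk2a. The 250 bases before the annotated start are shown for these genes only, because no promoter sequence was at hand for Grin2a or Grin2b. They are written 5′ to 3′ on the strand of the gene, with capitals for TGACG on either strand, the half-site of the cAMP response element. The build of these sequences, GRCr8, is not the build of the expression table, Rnor_6.0. For Dlg4 and Camk2a the gene's RefSeq span begins further upstream than the start used, so their windows lie inside the longest gene model.
Grin1 (GRCr8, chr3:28528755-28529004, minus strand): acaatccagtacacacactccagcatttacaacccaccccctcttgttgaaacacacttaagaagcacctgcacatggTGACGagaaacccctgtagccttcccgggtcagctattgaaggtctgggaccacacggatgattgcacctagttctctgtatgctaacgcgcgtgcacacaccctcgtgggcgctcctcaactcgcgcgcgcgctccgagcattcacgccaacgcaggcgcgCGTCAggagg
Dlg4 (GRCr8, chr10:55239534-55239783, plus strand): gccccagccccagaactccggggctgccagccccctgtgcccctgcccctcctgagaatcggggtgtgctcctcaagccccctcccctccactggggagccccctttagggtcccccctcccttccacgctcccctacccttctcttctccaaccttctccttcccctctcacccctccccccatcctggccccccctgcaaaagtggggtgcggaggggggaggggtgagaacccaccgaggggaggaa
Camk2a (GRCr8, chr18:56648930-56649179, plus strand): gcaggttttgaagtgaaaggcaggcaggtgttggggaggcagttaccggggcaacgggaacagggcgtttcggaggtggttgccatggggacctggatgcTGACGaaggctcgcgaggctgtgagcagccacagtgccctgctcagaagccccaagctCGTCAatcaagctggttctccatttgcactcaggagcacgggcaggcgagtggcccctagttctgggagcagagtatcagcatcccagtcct
Grin1 held the half-site on the gene's strand, 172 to 168 bases before the start, and on the opposite strand, 10 to 6 bases before it. Camk2a likewise held a copy on its own strand, 150 to 146 bases before the start, and a copy on the opposite strand, 92 to 88 bases before it. In Dlg4 these letters were not in the window, and 18.2% of 33465 rat promoter windows of the same length held them. The GC box GGGCGG and the TATA box TATAAA were also searched on both strands. Neither was in any of the 3 windows, while 30.5% and 12.9% of all windows held them. The GC content was 57.6% for Grin1, 69.2% for Dlg4 and 60.4% for Camk2a, against a median of 51.2% over all windows. Grin1 held 19 CpG dinucleotides, Camk2a 10 and Dlg4 5, the last equal to the median of all windows (5). No measurement of these samples bears on the promoters, so the sequences are a description only.

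The 5 genes lay at very different levels, in the same order in every library apart from Grin2a and Grin2b, which changed places. Levels are in FPKM (fragment counts divided by gene length and by the size of the library), which corrects for gene length and so allows genes to be compared, as far as the gene models are complete. All 5 were above 0 in all 8 libraries and were among the 12155 tested genes, those whose mean reached 1 FPKM. Depth is unknown in absolute terms. Low values move in steps that gave relative depths of 0.855 to 1.34, where 1 is the control library of PFC. By this estimate the deepest was CMS + luteolin hippocampus, where 57 of 1816 ratios of low values lay near the most common ratio. In this library the sum of FPKM was also the lowest, 300281, and the robust SD of log2 differences from the other hippocampus libraries was 0.41 to 0.44, against 0.19 to 0.21 among those 3. Differences between the tissues are given with and without its treatment, while similar patterns were sought over all 8 libraries only. Symbols were taken from the list that defined the genes, since 0 of the 31185 IDs could be matched to the symbol table, so that the pairing of ID and symbol was not checked. For the same reason no other synapse gene and no cell type marker could be named here, and the tissue labels were not checked against markers.

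Camk2a was among the most abundant transcripts of both tissues. It was at 1922 FPKM in control, 1696 in CMS + saline, 1653 in CMS + MGO and 1960 in CMS + luteolin PFC. In hippocampus it was at 1292, 1303, 1213 and 1004 FPKM in the same order of treatments. All PFC values lay above all hippocampus values. By level it ranked 2 to 6 among all genes in PFC and 11 to 13 in hippocampus, and it held 0.481% to 0.621% of the FPKM sum in PFC and 0.334% to 0.388% in hippocampus.

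Dlg4, the scaffold gene, was several times lower. Its levels were 372 FPKM in control, 455 in CMS + saline, 314 in CMS + MGO and 464 in CMS + luteolin PFC. The hippocampus libraries held 247, 295, 221 and 206 FPKM. Again the lowest PFC library was above the highest hippocampus library. Dlg4 ranked 73 to 140 in PFC and 155 to 244 in hippocampus.

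Grin1, the subunit common to all NMDA receptors, was at 50.7 FPKM in control, 38.1 in CMS + saline, 59.9 in CMS + MGO and 51.5 in CMS + luteolin PFC. In hippocampus it was at 41.2, 40.7, 52.5 and 87.5 FPKM. The ranges of the tissues overlapped, and hippocampus under CMS + luteolin held the highest of the 8 values. In the other 7 libraries the values stayed between 38.1 and 59.9 FPKM.

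The GluN2 genes were the lowest of the set. Grin2a was at 3.58 FPKM in control, 2.45 in CMS + saline, 4.47 in CMS + MGO and 3.3 in CMS + luteolin PFC. Its hippocampus values were 5.82, 5.85, 5.52 and 14.8 FPKM, all above the PFC values, with 3 of the 4 close together. Grin2b, in the same order of treatments, was at 3.14, 2.78, 4.25 and 5.71 FPKM in PFC. The hippocampus libraries held 2.42, 3.47, 3.13 and 10.1 FPKM of it. Its tissue ranges overlapped, and CMS + luteolin was its highest library in each tissue. Between 20.02% and 66.1% of the tested genes lay below Grin2a in a library, and between 20.7% and 55.1% below Grin2b.

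**Figure D1:**
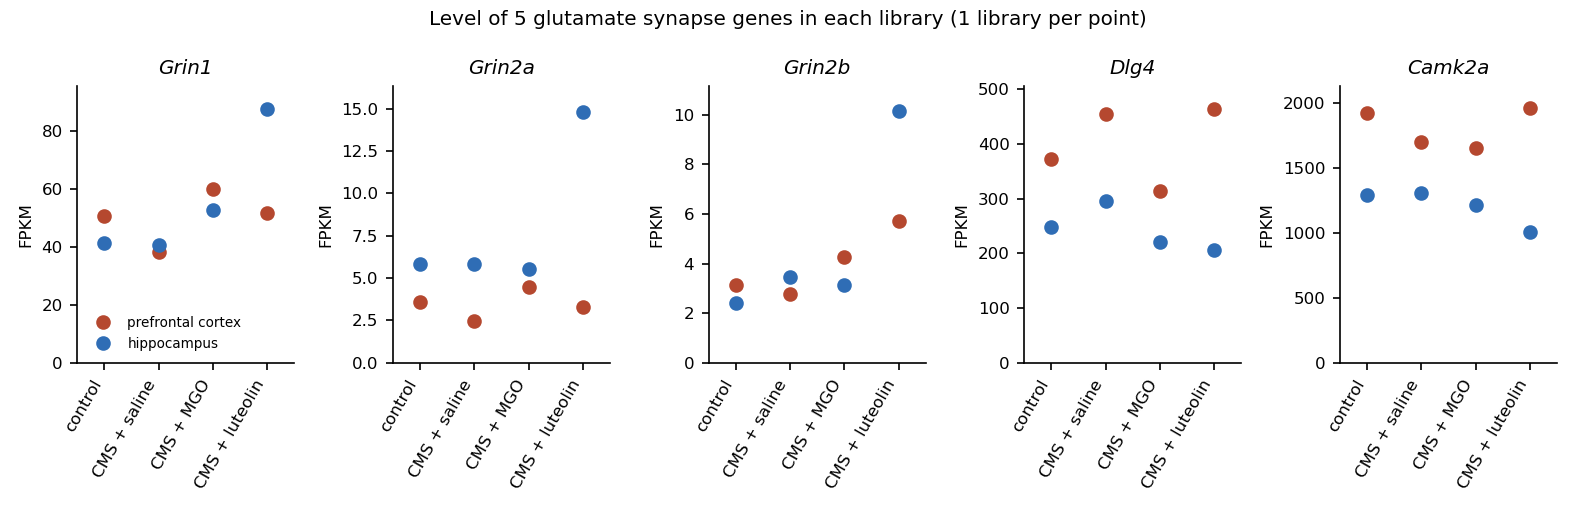
FPKM (linear axes from 0) of each gene by treatment, with 1 point per library, PFC in red and hippocampus in blue. Camk2a and Dlg4 were higher in PFC under every treatment, as were 20.3% of tested genes. The 3 NMDA receptor genes were highest in the CMS + luteolin hippocampus library, Grin1 at 87.5, Grin2a at 14.8 and Grin2b at 10.1 FPKM. Among the 4 hippocampus libraries, this one was the highest for 41.1% of tested genes.

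The first comparison asked whether PFC and hippocampus differ, with the 4 treatments as the libraries of a tissue. Dlg4 was higher in PFC. Camk2a, with higher values in PFC, and Grin2a, with higher values in hippocampus, did not pass the threshold, and the direction for Grin1 and Grin2b differed between treatments. Of the 5 genes, 1 passed the test (limma, adjusted p under 0.05), where 15.9% of all 12155 tested genes did, 8.1% higher in PFC and 7.84% higher in hippocampus. Without adjustment 3 of the 5 had a limma p under 0.05, a count whose share over all genes is not given here. The highest p of the 3 was that of Grin2a, and 3132 of the 12155 tested genes had an adjusted p as low as that of Grin2a. The median difference over all tested genes was -0.04 on the log2 scale. In bulk tissue, fewer cells of a type and less RNA per cell cannot be told apart.

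Dlg4 had a mean of 401 ± 71.5 FPKM over the PFC libraries and 242 ± 39.2 FPKM over the hippocampus libraries (SD, n = 4). PFC minus hippocampus was 0.72 in log2(FPKM + 1) (SE 0.14, limma adjusted p = 0.0337), or 1.65-fold. PFC was higher in 4 of 4 treatment pairs, as it was for 20.3% of tested genes. The pairs differed by 0.58 in control, 0.62 in CMS + saline, 0.51 in CMS + MGO and 1.17 in CMS + luteolin. Without the CMS + luteolin pair the difference was 0.57 (limma adjusted p = 0.0494). The call was lost without the control pair (0.77, limma adjusted p = 0.112) and without the CMS + saline pair (0.75, limma adjusted p = 0.112). It was also lost without the CMS + MGO pair (0.79, limma adjusted p = 0.0812) and when low genes were kept in the test (limma adjusted p = 0.0549). A fit without a pair leaves 2 residual degrees of freedom. Genes called fell from 1937 to 243 without control, 499 without CMS + saline, 623 without CMS + MGO and 838 without CMS + luteolin.

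For Camk2a the means were 1808 ± 156 and 1203 ± 139 FPKM (SD, n = 4). PFC minus hippocampus was 0.59 (SE 0.14, 1.51-fold) and just missed the threshold (limma adjusted p = 0.0517). PFC was higher in 4 of 4 pairs (20.3% of tested genes), by 0.57 in control, 0.38 in CMS + saline, 0.45 in CMS + MGO and 0.97 in CMS + luteolin. It passed without the replicate block of treatment pairs (limma adjusted p = 0.0155), with a pseudocount of 0.1 (limma adjusted p = 0.0452) and when each library was scaled to the same sum (limma adjusted p = 0.0387). Without the CMS + luteolin pair the difference was 0.47 (limma adjusted p = 0.0949).

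Grin2a lay the other way. Its mean was 3.45 ± 0.834 FPKM over the PFC libraries and 8.0 ± 4.54 FPKM over the hippocampus libraries (SD, n = 4). PFC minus hippocampus was -0.92 (SE 0.28, limma adjusted p = 0.0895). Hippocampus was higher in 4 of 4 pairs, as it was for 25.2% of tested genes. The pairs ranged from -0.25 in CMS + MGO to -1.88 in CMS + luteolin. Without CMS + luteolin, the 3 hippocampus libraries averaged 5.73 ± 0.179 FPKM, and the difference over the 3 pairs was -0.60 (limma adjusted p = 0.127). Across all tested genes, 27.0% had tissue ranges that did not overlap, as Dlg4, Camk2a and Grin2a did, 11.9% with PFC higher and 15.2% with hippocampus higher.

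Grin1 had means of 50.1 ± 9.0 FPKM for PFC and 55.5 ± 22.0 FPKM for hippocampus (SD, n = 4), and the former minus the latter was -0.09 in log2(FPKM + 1) (SE 0.20, limma adjusted p = 0.779). The means of Grin2b were 3.97 ± 1.32 and 4.79 ± 3.6 FPKM (SD, n = 4), and the same difference was -0.09 (SE 0.21, limma adjusted p = 0.803). Each was higher in PFC in 2 of 4 pairs, control and CMS + MGO. Without the CMS + luteolin pair both differences turned to 0.13, with limma adjusted p = 0.478 for Grin1 and 0.634 for Grin2b. The SEs leave room for a difference in either direction, so these values do not show that the tissues are equal.

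**Figure D2:**
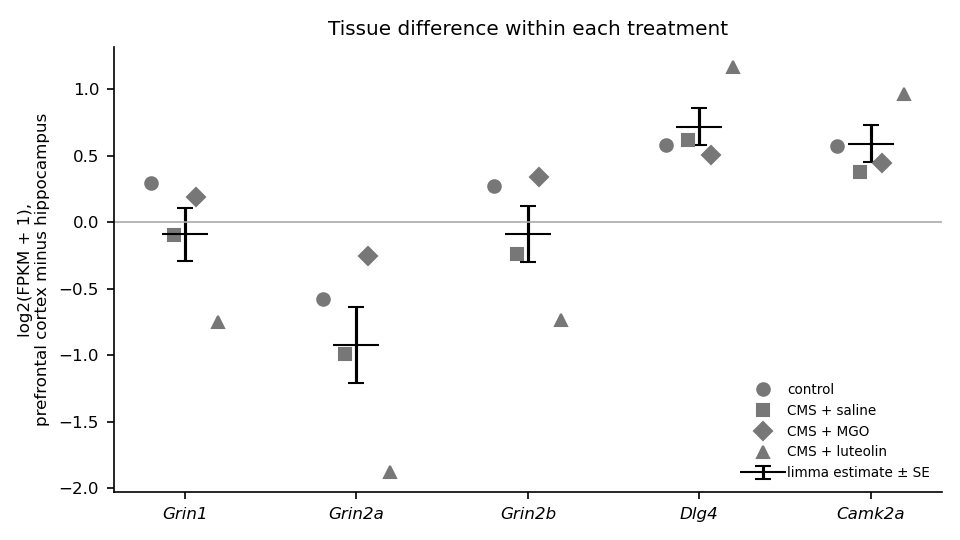
Difference in log2(FPKM + 1), PFC minus hippocampus, for each gene within each treatment (grey symbols), with the limma estimate and its SE in black. All 4 pairs lie above 0 for Dlg4 (0.51 to 1.17) and Camk2a and below 0 for Grin2a, and the CMS + luteolin pair (triangles) is the farthest from 0 for every gene. Of all tested genes, 20.3% had all 4 pairs above 0 and 25.2% had all 4 below.

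Ratios between genes within a library do not depend on how the library was scaled, and 5 were compared between the tissues. Grin2a stood higher relative to the other NMDA receptor genes in hippocampus. The Grin2a/Grin2b ratio was 1.14 in control, 0.881 in CMS + saline, 1.05 in CMS + MGO and 0.578 in CMS + luteolin PFC, and 2.41, 1.69, 1.76 and 1.46 in the hippocampus libraries. The ranges did not overlap, and the geometric means were 0.885 and 1.80, a log2 difference of -1.02 with hippocampus higher in 4 of 4 pairs. Without the CMS + luteolin pair it was -0.92. An exact permutation test within the 4 pairs gave p = 0.125 (two-sided, 0.156 adjusted over the 5 ratios), the smallest p that 4 pairs allow. With the libraries freely reassigned, the exact permutation p was 0.0286 (0.0714 adjusted).

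The ranges of the Grin2a/Grin1 ratio did not overlap either. Grin1 was 13.4 to 15.6 times Grin2a in the PFC libraries and 5.91 to 9.50 times Grin2a in the hippocampus libraries, a log2 difference of the Grin2a/Grin1 ratio of -1.01 (4 of 4 pairs, exact permutation p = 0.125 within pairs, 0.156 adjusted). Without the CMS + luteolin pair it was -0.88. Both ratios hold Grin2a, whose own difference was -0.92, against -0.09 for both Grin1 and Grin2b, so they are not separate results. No share over the ratios of other gene pairs is given here. The Grin2b/Grin1 ratio had a log2 difference of 0.01 (0.03 without the CMS + luteolin pair) and was higher in PFC in 2 of 4 pairs (exact permutation p = 0.875). Its highest value in each tissue was that of CMS + luteolin, 0.111 in PFC and 0.116 in hippocampus, against 0.0586 to 0.0852 in the other 6 libraries.

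Camk2a was 3.73 to 5.26 times Dlg4 in PFC and 4.41 to 5.50 times Dlg4 in hippocampus, overlapping ranges. The log2 difference of the Camk2a/Dlg4 ratio was -0.13, with hippocampus higher in 4 of 4 pairs (exact permutation p = 0.125 within pairs, 0.156 adjusted, the smallest that 4 pairs allow, and 0.4 with free reassignment). Without the CMS + luteolin pair it was -0.11. The Dlg4/Grin1 ratio varied more. It was 7.33 in control, 11.9 in CMS + saline, 5.24 in CMS + MGO and 9.01 in CMS + luteolin PFC, and 6.0, 7.25, 4.20 and 2.36 in the hippocampus libraries. The log2 difference was 0.82 (higher in PFC in 4 of 4 pairs, exact permutation p = 0.125 within pairs, 0.156 adjusted) and 0.44 without the CMS + luteolin pair. In both tissues CMS + saline was the highest of the first 3 treatments and CMS + MGO the lowest. The tissues of a treatment share a rat in the protocol, so the hippocampus is no independent repeat.

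**Figure D3:**
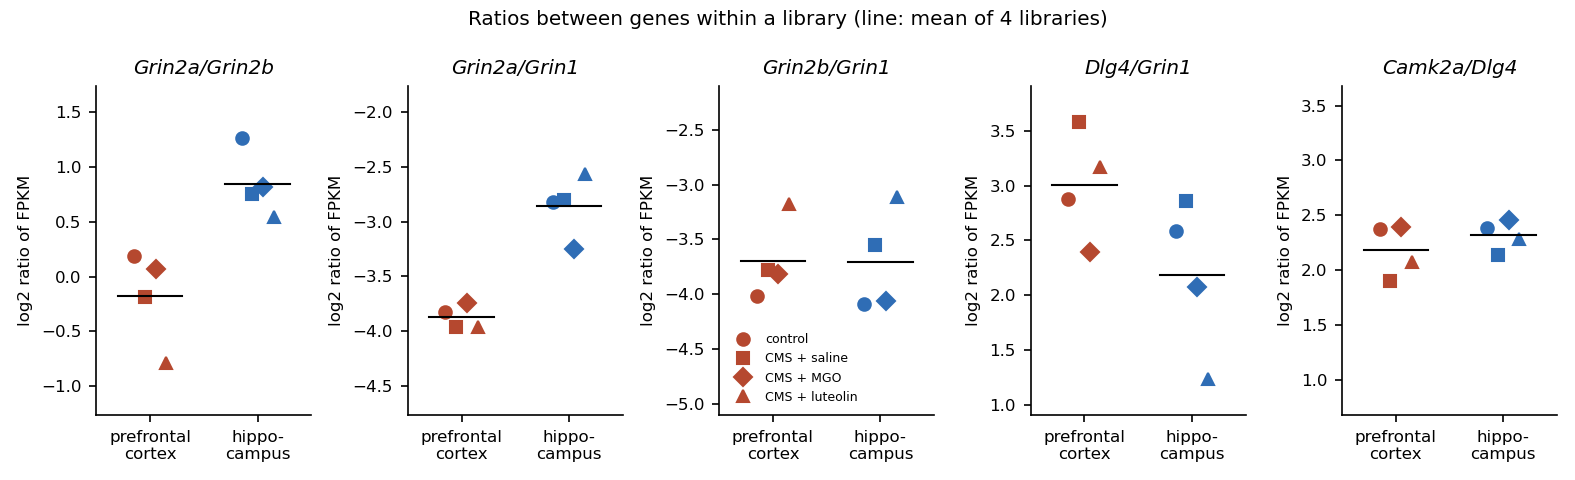
Log2 ratio of FPKM between genes of the same library, by tissue, with a symbol per treatment and a line at the mean of the 4 libraries. Each panel spans the same log2 range. Grin2a/Grin2b and Grin2a/Grin1, which share Grin2a, do not overlap between the tissues, with log2 differences of -1.02 and -1.01. Grin2b/Grin1 overlaps (0.01).

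For stress itself, CMS + saline was compared with control in the same tissue. None of the 5 genes differed 2-fold in either tissue (0 of 5, against 6.83% of all tested genes in PFC and 5.66% in hippocampus). In PFC the NMDA receptor genes were lower in the stressed rat, Grin1 by -0.40, Grin2a by -0.41 and Grin2b by -0.13 on the log2(FPKM + 1) scale. Dlg4 was higher by 0.29 and Camk2a lower, at -0.18. When libraries were scaled to the same sum these values kept their sign, with Grin1 at -0.58, Grin2a at -0.64, Grin2b at -0.31, Dlg4 at 0.13 and Camk2a at -0.35, and all but Grin1 moved by more than 1.5 times. In hippocampus Grin1, Grin2a and Camk2a hardly differed (-0.02, 0.01 and 0.01, the latter pair at -0.01 each with median-ratio size factors), Grin2b was higher by 0.39 and Dlg4 by 0.25. Of all tested genes, 23.4% differed at least as much as Grin2a in PFC and 15.9% at least as much as Grin2b in hippocampus. In the descriptions, a code is shared by 6 libraries and differs in both CMS + saline libraries, so treatment, rat and code cannot be told apart in this comparison or in those of either drug with CMS + saline.

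For MGO, the CMS + MGO library was compared with CMS + saline of the same tissue. Again 0 of 5 genes differed 2-fold, where 6.51% of tested genes did in PFC and 6.01% in hippocampus. In PFC the 3 NMDA receptor genes were higher with MGO, Grin1 by 0.64, Grin2a by 0.67 and Grin2b by 0.47, and Grin1 and Grin2a passed 1.5-fold, as 15.3% of tested genes did in either direction. Dlg4 was lower, at -0.53, and Camk2a nearly level, at -0.04, or -0.12 with median-ratio size factors and 0.05 when scaled to the same sum. In hippocampus Grin1 was higher by 0.36 and Dlg4 lower, at -0.42, while Grin2a (-0.07), Grin2b (-0.11) and Camk2a (-0.10) differed less. Against control the MGO values lay between -0.24 and 0.34 in PFC and between -0.17 and 0.34 in hippocampus. All of these comparisons share libraries, so their agreement is not a separate result.

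Luteolin under stress was compared with the same CMS + saline libraries. In PFC 0 of 5 genes differed 2-fold (6.52% of tested genes did), and all 5 were higher with luteolin, from 0.03 for Dlg4 to 0.83 for Grin2b, although with median-ratio size factors Dlg4 was at -0.02 and 4 of 5 were higher. Scaled to the same sum, Dlg4 was at 0.19, Grin2a at 0.53 against 0.32, and Camk2a at 0.37 against 0.21. Grin2b passed 2-fold with a pseudocount of 0.1 (1.01) and when libraries were scaled to the same sum (1.10), settings without a share over all genes here. It was also 0.70 higher than in control PFC. In hippocampus 3 of 5 genes were at least 2-fold higher, where 7.52% of tested genes differed 2-fold and 3.43% were higher. These were Grin1 (1.09), Grin2a (1.21) and Grin2b (1.32). Dlg4 was lower, at -0.52, and so was Camk2a, at -0.38 (-0.22 when scaled to the same sum).

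**Figure D4:**
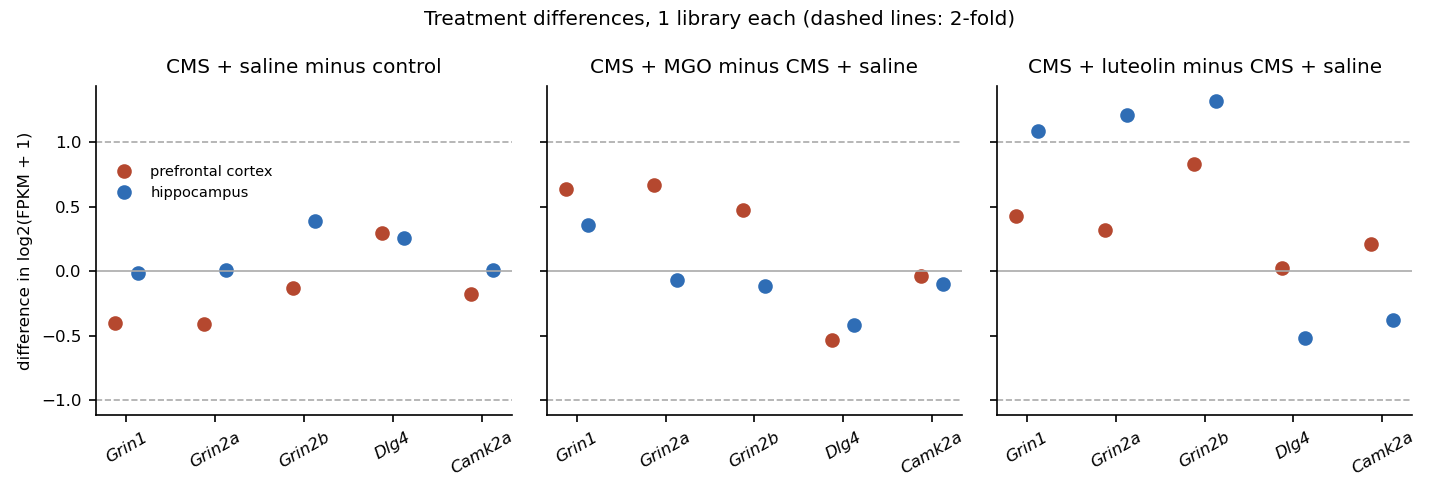
Difference in log2(FPKM + 1) for each gene in the 3 treatment comparisons of the design, with PFC in red, hippocampus in blue and dashed lines at 2-fold. Each point compares 1 library with 1 library, and the points past a dashed line are Grin1, Grin2a and Grin2b in hippocampus with luteolin (1.09, 1.21 and 1.32).

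The same 3 genes were also higher in this library than in control and CMS + MGO hippocampus. Among the 4 hippocampus libraries, it was the highest for 41.1% of tested genes and the lowest for 30.5%. Against control, Grin1 was 1.07, Grin2a 1.21 and Grin2b 1.71 higher with luteolin, where 6.61% of tested genes differed 2-fold. Against CMS + MGO, 2 of 5 genes were 2-fold higher (8.11% of tested genes differed), Grin2a and Grin2b, and Grin1 was 0.73 higher, a difference that 14.9% of tested genes reached in either direction. Relative to the mean of the other 3 hippocampus libraries, Grin1 was 0.96, Grin2a 1.23 and Grin2b 1.48 higher, and 3.17%, 1.78% and 1.16% of tested genes were higher still. Dlg4 stood at -0.29 and Camk2a at -0.34 on the same measure, within the body of all genes. In PFC the CMS + luteolin library stood 0.08 from the mean of the other 3 for Grin1, -0.04 for Grin2a and 0.63 for Grin2b, and the difference between the tissues was not tested. Over all 6 treatment pairs of both tissues, 8 of 60 values passed 2-fold (5.66% to 8.11% of tested genes did in a pair), and all 8 came from this library. They are Grin1, Grin2a and Grin2b, each set against several of the other hippocampus libraries, so the 8 are not separate results. Of the 45 values that do not use it, 0 passed. The depth, the FPKM sum and the spread of this library, given above, move with these differences, and their part in the result was not tested.

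**Figure D5:**
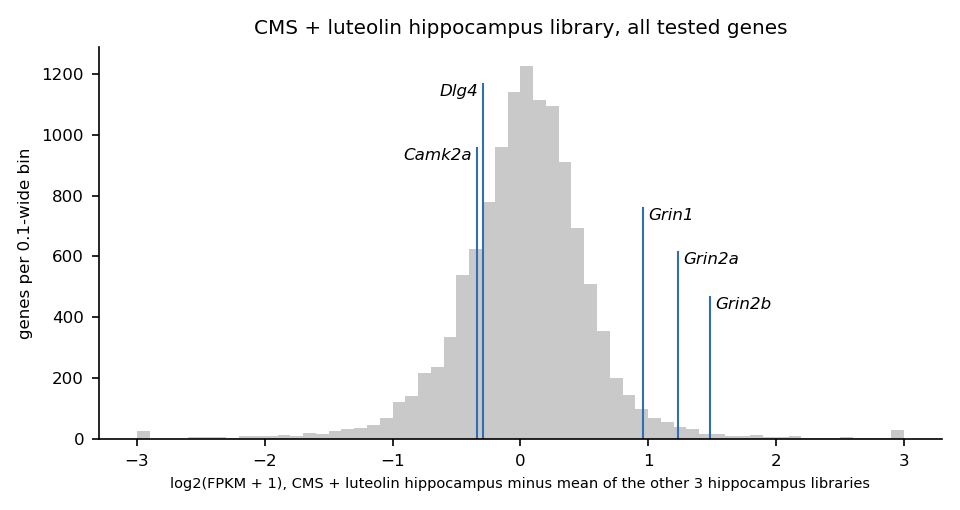
Distribution over the 12155 tested genes of log2(FPKM + 1) in the CMS + luteolin hippocampus library minus the mean of the other 3 hippocampus libraries (bars; genes beyond 3 in either direction are in the end bars), with the 5 genes as lines whose height has no meaning. Grin1 (0.96), Grin2a (1.23) and Grin2b (1.48) lie in the upper tail, and Dlg4 (-0.29) and Camk2a (-0.34) below the median (0.05).

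Among themselves the genes differed in how much they varied over the 4 treatments of a tissue. Camk2a was the steadiest, with an SD of log2(FPKM + 1) of 0.12 in PFC and 0.17 in hippocampus, below the median of all tested genes (0.18 and 0.20). Its highest PFC library was 1.19 times its lowest, and without CMS + luteolin the hippocampus libraries differed by 1.07 times. Dlg4 had SDs of 0.27 and 0.23, and Grin1 0.27 in PFC and 0.51 in hippocampus. Grin2a (0.27 and 0.62) and Grin2b (0.37 and 0.76) varied most. Without the CMS + luteolin library the hippocampus SD was 0.04 for Grin2a, the lowest of the 5, and 0.20 for Grin2b.

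Genes with the most similar pattern were sought by Pearson's r of log2(FPKM + 1) over the 8 libraries, among the 5396 genes whose mean reached 10 FPKM. The libraries share rats, tissues and scaling, so r is a description, and it was not computed without the CMS + luteolin hippocampus library. The gene closest to Camk2a was ENSRNOG00000033915 (r = 0.997), with 17.6 to 20.5 FPKM over the PFC libraries and 10.1 to 13.2 over the hippocampus libraries. Closest to Dlg4 was ENSRNOG00000020905 (r = 0.988), with ranges of 45.8 to 56.5 and 35.5 to 42.3 FPKM. For Grin2a it was ENSRNOG00000023809 (r = 0.987), which stood at 30.9 FPKM in hippocampus with luteolin and at 10.3 to 18.0 FPKM in the other 7 libraries. For Grin1 it was ENSRNOG00000001178 (r = 0.978), with 32.2 FPKM in that library and 19.2 to 26.5 FPKM in the others. These IDs were not matched to symbols.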

How the data were processed

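Total RNA from prefrontal cortex and hippocampus was column-purified and sequenced on an Illumina HiSeq platform, per the labels' protocols. The submitters' processing notes list StringTie 1.2.4, HISAT2 2.0.4 and FastQC 0.11.5, without roles or settings, and Rnor_6.0 (rn6) as the build. Which annotation was used is not given in the sources used here. Deposited values were taken as FPKM computed by the authors, a unit inferred from the named tools and from values that are not whole and sum to different totals. Titles linked each of the 8 value columns to its sample.

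FPKM were transformed to log2(FPKM + 1), on which low genes differ less than in FPKM, and the 12155 genes with a mean of 1 FPKM or more were kept. The tissues were tested with limma 3.58.1 (R 4.3.3) in a two-sided test with a variance trend, a term for treatment (the block) and 3 residual degrees of freedom. P-values were adjusted by Benjamini-Hochberg over these genes, with a threshold of 0.05. The script was tested on simulated data in which each gene varied equally in all libraries, which does not cover a library of wider spread. The pairing comes from the protocol, where each named rat gave both tissues. CMS + luteolin was paired by treatment. Within a treatment, deviations of both libraries from their tissue means correlated across genes. The r was 0.12 for control, 0.175 with saline, 0.0458 with MGO and 0.114 with luteolin under CMS. No r between different treatments was computed, so these values do not show that a rat was shared. An SD over a tissue's libraries contains treatment, and p-values reflect the variation of the tissue difference between treatments. Ratios were tested by exact permutation in scipy 1.17.1. Treatments were compared by differences of log2(FPKM + 1), with 2-fold meaning at least 1. Alternatives were another pseudocount, no filter, median-ratio and sum scaling, no block, 1.5-fold and leaving out each pair. Python 3.11.15 with numpy 2.4.6, pandas 2.3.3 and matplotlib 3.10.9 was used. Promoter sequences are from RefSeq, build GRCr8, and 33465 windows of plain bases served as background.

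The genes, lists and tests were chosen with earlier results of these data known. The rule for named genes took the 5 genes, members of synapse and cell type lists where IDs could be matched (0 of 31185 could, against a table of 47357 genes, so no list was evaluated), and the 2 genes with the pattern most like each, of which at most 2 IDs per direction are printed.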

Additional observations from a re-analysis of the deposited data

Results flagged for a closer look

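2 values stood far from the others of their tissue, by a rule that asks whether the gap to the nearest library takes up most of the range of 4 libraries. Grin2a reached 14.8 FPKM in hippocampus under CMS + luteolin and was at 5.52 to 5.85 FPKM in the other 3, a gap of 0.965 of the range. Grin2b was at 10.1 FPKM there and at 2.42 to 3.47 FPKM in the other 3, a gap of 0.864 of the range. For genes the rule was applied to FPKM only. In log2(FPKM + 1), Grin2b stood 1.32 above the highest of the other 3, in a range of 1.71, a smaller part of the range. Grin1 was also highest there, with a gap of 0.749, which did not reach the critical value. Of the 20 groups of 4 values tested, 10 per tissue, both came from the CMS + luteolin hippocampus library. The nominal rate of the rule is about 1 in 20. The groups share genes and libraries, so the 2 flags cannot be set against this rate.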

How the results depend on the processing

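For Camk2a, whose difference between PFC and hippocampus missed the threshold, the value was 0.59. It passed with a pseudocount of 0.1, with sum scaling (0.59) and with no replicate block (0.59). For Dlg4 the difference was 0.72 and lost its call with no filter on low values. Exact permutation within pairs gave Dlg4 p = 0.125, the smallest that 4 pairs allow, so it could call no gene. Grin2a, at -0.92, passed only in an alternative chosen after seeing the data. This had no replicate block and left out the CMS + luteolin hippocampus library (-0.62, limma adjusted p = 0.0326). A free exact permutation gave Camk2a and Grin2a an unadjusted p = 0.0286, which is no call. Every gene whose tissue ranges do not overlap (27.0% of tested genes) has this p. In that alternative Grin1 was at 0.15, Grin2b at 0.28 and Camk2a at 0.51 (limma adjusted p = 0.0133), and the cause was not tested. Leaving out a pair gave 0.57 to 0.79 for Dlg4, 0.47 to 0.66 for Camk2a, -1.15 to -0.60 for Grin2a, -0.22 to 0.13 for Grin1 and -0.23 to 0.13 for Grin2b. The Grin2b/Grin1 ratio turned between -0.0705 and 0.086, at -0.01 without the control pair and -0.0705 without the CMS + MGO pair. Genes called fell from 1937 to between 243 and 838, with 129 to 442 higher in PFC and 114 to 396 higher in hippocampus (a fit of 3 pairs leaves 2 residual degrees of freedom), and with no replicate block and without the CMS + luteolin hippocampus library there were 2629, 1256 and 1373. No replicate block changed no call of a ratio. At 1.5-fold, 2 of the 5 genes differed with MGO (15.3% of tested genes) and 1 with luteolin (14.2%) against CMS + saline in PFC. With a pseudocount of 0.1 or sum scaling, 1 passed 2-fold with luteolin in PFC, and no share over all genes is given for these settings. Of all 300 results under alternatives, 257 kept direction and side of the threshold, and 4 treatment values below 2-fold changed sign, all within 0.0504 of 0. The count includes results that could not change, so it does not measure robustness. A filter leaves the treatment difference of a gene as it is, and ratio tests within pairs cannot reach a p under 0.05. For permutation tests of single genes, the side is that of an unadjusted p. Depth limits Grin2a and Grin2b most, by an amount that absolute depth would be needed to give.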
